A study of Homo sapiens with 2 samples.

Results

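The 9 genes described here were the mucins MUC1, MUC4, MUC5B, MUC13, MUC15, MUC16, MUC20, MUC21 and MUC22, which are known from oral and airway epithelium. They were found by name: a probe belonged to them where it was not a control probe and the gene name given for it in the array files was one of these symbols. They had 16 of the 58201 probes and were 9 of the 43317 gene names on the array. Gene expression was measured in Ca9-22, a cell line established from an oral squamous cell carcinoma (OSCC). Cells of the control group carried a control lentiviral vector and cells of the other group a lentiviral vector for DLEU1, a long noncoding RNA, and both groups were kept under blasticidin for 2 weeks so that cells with the vector remained. From each group, 100 ng of RNA carried the dye Cy3 and went onto 1 Agilent array read in 1 colour. A single array per group holds no spread between cultures, so there is no test or p-value here, and precision is limited by the number of arrays.

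Mucins are large glycoproteins whose extended regions of repeated serine, threonine and proline residues carry dense chains of O-linked sugars. The gel-forming mucins, such as MUC5B, are secreted and give saliva and airway mucus their viscosity, while the membrane mucins, among them MUC1, MUC4, MUC13, MUC15, MUC16, MUC20, MUC21 and MUC22, are anchored in the plasma membrane of epithelial cells and form the glycocalyx that faces the mouth or the airway lumen. In stratified squamous epithelium the membrane mucins are found mainly in the upper layers, and MUC1 and MUC4 are also known as partners of receptor tyrosine kinases at the surface of carcinoma cells.

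A mucin repeat can be read by the probes themselves, and this mattered most for MUC4, which had 4 probes on chromosome 3. The probes are shown to let a reader see which of them lie in repeated sequence. All positions are those of the array files, on human genome build hg19, and sequences are those of the deposited probes, 5′ to 3′ on the minus strand for MUC4. Capitals mark the longest run of bases, 12 in all, that the first 3 probes had in common, and the last probe has none.
MUC4 A_24_P239177, chr3:195514780-195514839: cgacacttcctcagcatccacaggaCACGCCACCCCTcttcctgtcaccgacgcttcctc
MUC4 A_24_P239176, chr3:195514760-195514819: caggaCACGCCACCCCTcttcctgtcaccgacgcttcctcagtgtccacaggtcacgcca
MUC4 A_33_P3417281, chr3:195506310-195506369: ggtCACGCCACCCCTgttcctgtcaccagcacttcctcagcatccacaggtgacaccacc
MUC4 A_24_P208825, chr3:195474164-195474223: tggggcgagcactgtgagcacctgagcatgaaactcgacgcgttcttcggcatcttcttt

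The first 3 sequences look alike and lie in the tandem repeat of MUC4. A_24_P239177 and A_24_P239176 overlapped by 40 bases, so they are not independent readings of the transcript. Set against itself at a shift of 48 bases, each of the 3 had 11, 11 and 10 of 12 compared bases the same, in the order printed. Of all 58201 probes of 60 bases, 25 (0.043%) had at least 10 such matches. The fourth probe, 32086 bases away from the nearest of the others, had 2 of 12. Read as a repeated unit, A_33_P3417281 matched 53 of 60 bases of each of the first 2 probes and 25 of 60 of the last. The repeat probes were listed for 1 RefSeq transcript of MUC4, NM_018406, where they started at bases 4391, 4411 and 12237, and the last probe, which started at base 16218 of that transcript, was also listed for the shorter forms NM_004532 and NM_138297.

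For MUC1 and MUC16 the detected probe is shown, and for MUC22 the pair of overlapping probes, which were detected on neither array. The MUC1 and MUC16 probes covered 1075 and 2123 bases of the genome, more than the 60 bases of a probe, so each crosses at least 1 exon boundary in the spliced transcript. The MUC1 letters code for part of the cytoplasmic tail. Capitals mark the 15 bases shared by the 2 MUC22 probes, which lie on the plus strand.
MUC1 A_23_P137856, chr1:155158652-155159726: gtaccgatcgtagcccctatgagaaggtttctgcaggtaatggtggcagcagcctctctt
MUC16 A_23_P5211, chr19:8966801-8968923: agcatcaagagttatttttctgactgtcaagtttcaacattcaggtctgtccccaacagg
MUC22 A_33_P3408232, chr6:31002611-31002670: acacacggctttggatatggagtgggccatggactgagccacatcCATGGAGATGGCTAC
MUC22 A_33_P3214914, chr6:31002656-31002715: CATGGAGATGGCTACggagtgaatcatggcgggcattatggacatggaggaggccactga

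Signals are the deposited processed signal, an intensity without a unit, from which the scanner software had already taken the background. The error given after a signal is the software's own estimate for that spot and does not hold the variation between cultures. Detected means that the software marked the spots of a probe as well above background. The lowest signal so marked was 14.2 (control vector) and 14.3 (DLEU1 vector), and dim spots had been given a surrogate value by the software. Levels are log2 of the signal minus the 75th percentile of the array (7.92 in the control and 7.88 with the DLEU1 vector), and a difference is the DLEU1 vector level less the control vector level, in log2 units. Between spots of 1 probe, the SD of such a difference was 0.0800 over 282 probes with replicated spots. A 2-fold difference, 1 on the log2 scale, was the threshold for calling a gene.

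On the control vector array 47.6% of all probes were detected and on the DLEU1 vector array 48.1%, and the median difference over the 20246 genes detected on both arrays was -0.07. The vector gene DLEU1 differed by 2.74, 0.85 and 0.54 on its 3 probes, all higher with the DLEU1 vector. All 6 markers of squamous basal epithelium were detected on both arrays, and all 5 salivary acinar markers with a probe, the mucin MUC7 among them, on neither. In a narrow strip at one end of the DLEU1 vector array, 37.5% of the spots that were lit with the control vector were at least 2-fold lower, against 13.6% elsewhere. None of the mucin probes lay in it (0 of 16), and none was marked as an outlier or saturated (0 of 16 each).

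Of the 9 mucins, 3 were detected on both arrays (MUC1, MUC4 and MUC20), 3 on the DLEU1 vector array only (MUC15, MUC16 and MUC22) and 3 on neither (MUC5B, MUC13 and MUC21). No mucin (0 of 9) was detected on the control vector array only. Over all gene names, 2.84% were detected on the DLEU1 vector array only, 2.44% on the control vector array only and 48% on neither. These counts over 9 genes describe this pair of arrays. Levels of different probes were not set against each other, since probes differ in how well they bind.

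**Figure D1:**
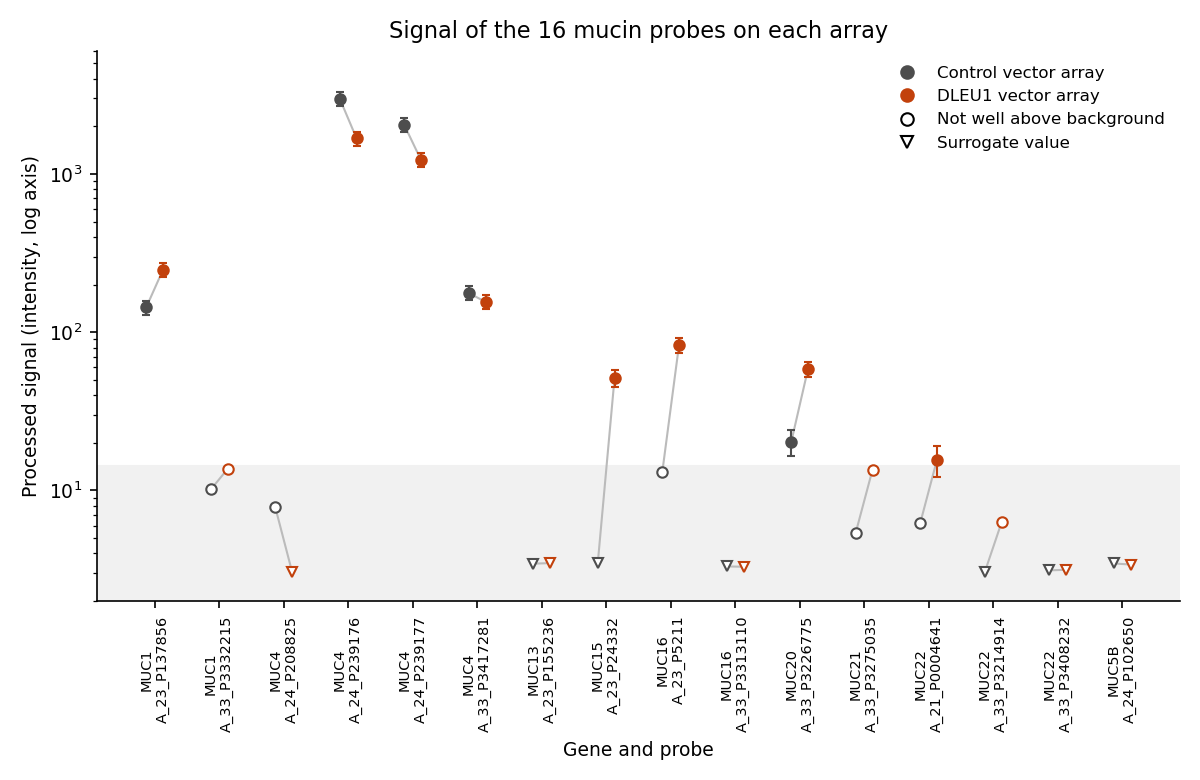
Processed signal (intensity, log axis) of each of the 16 mucin probes on the control vector array (grey) and the DLEU1 vector array (orange), with bars for the software's error of a detected spot. Open symbols were not well above background, triangles are surrogate values, and the grey band ends at the lowest detected signal (14.3), so that only 5 probes have both points filled and 3 have a filled point with the DLEU1 vector alone.

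MUC4, a large membrane mucin that pairs with ERBB2, gave lower signals with the DLEU1 vector on its 3 detected probes, on 1 of them by less than the software error. A_24_P239176 had a signal of 2989 ± 299 in the control and 1679 ± 168 with the DLEU1 vector. A_24_P239177, which shares 40 bases with it, had 2041 ± 204 and 1224 ± 123. In both readings the DLEU1 vector array was the dimmer, and the software's errors of its signals did not reach those of the control. The third repeat probe, A_33_P3417281, had 177 ± 17.9 in the control and 155 ± 15.8 with the DLEU1 vector, which overlapped within these errors.

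The log2 difference was -0.79 for A_24_P239176, with a software error of 0.20, and -0.70 for A_24_P239177. For A_33_P3417281 it was -0.15, with an error of 0.21. All 3 repeat probes were thus lower and under 2-fold, with unequal differences although 53 of 60 bases of their repeat matched. The probe outside the repeat had 7.85 and 3.07 and was not well above background on either array, so it gave no difference. MUC4 was therefore read by its repeat probes alone. Whether their signal came from MUC4 transcript only was not tested. The value taken for the gene, by the rule of the brightest probe detected on both arrays, was that of A_24_P239176, at 0.577 of the control. Among all genes detected on both arrays, 14.6% had a lower value.

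MUC1, a membrane mucin with a cytoplasmic tail that takes part in signalling, was higher with the DLEU1 vector. Its probe A_23_P137856, printed above, had a signal of 143.5 ± 14.8 in the control and 248 ± 25.1 with the DLEU1 vector. The 2 signals lay further apart than their software errors. The difference was 0.83, with a software error of 0.21, which is 1.77-fold and under the 2-fold threshold. A total of 12.2% of the genes detected on both arrays had a larger one. The other MUC1 probe, A_33_P3332215 (chr1:155161975-155162034), lies 2248 bases from it in the genome and is listed for other transcripts of the gene, among them NM_001044392. It had 10.1 and 13.6 and was not well above background on either array.

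MUC20, a small membrane mucin whose gene lies beside MUC4, was the only one past 2-fold among the 3 mucins detected on both arrays. Its single probe A_33_P3226775 (chr3:195464463-195464522, plus strand) had 20.3 ± 3.71 in the control and 58.6 ± 6.66 with the DLEU1 vector. The control signal was close to the lowest detected signal of 14.2, and with normexp, another background correction, the log2 difference was 0.61. The difference was 1.57, with a software error of 0.31, which is 2.97-fold. Of the genes detected on both arrays, 3.90% had a larger difference. Among 2330 genes within 0.5 of its mean log2 level, 10.8% passed 2-fold upwards and 6.82% downwards. The probe of MUC20 lay 9641 bases from the nearest MUC4 probe, the one outside the repeat, which was not detected. The MUC20 probe and the MUC4 repeat probes differed in opposite directions.

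Of the 3 mucins detected on both arrays, 1 passed 2-fold upwards (MUC20) and 0 passed it downwards. Over all genes detected on both arrays, 9.18% passed it upwards and 9.78% downwards. The median of the 3 was 0.83, the value of MUC1, beside -0.07 over all genes.

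**Figure D2:**
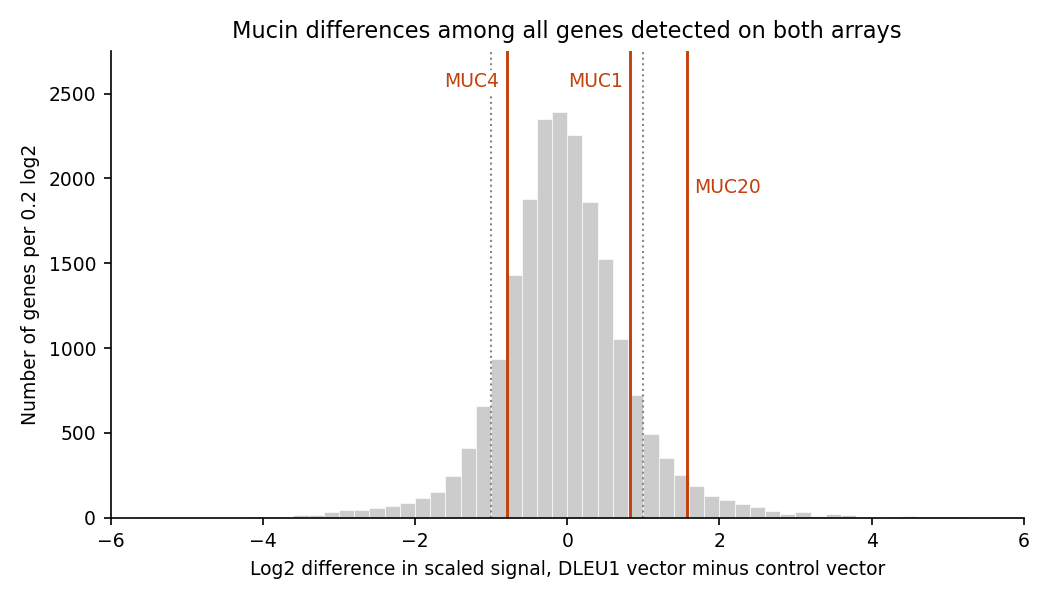
Number of genes (bars, 0.2 wide on the log2 scale) by their log2 difference, DLEU1 vector minus control vector, for the 20246 genes detected on both arrays, of which 10 lie beyond 6 and are not drawn. Orange lines mark MUC4 at -0.79, MUC1 at 0.83 and MUC20 at 1.57, and dotted lines the 2-fold threshold, which MUC20 alone of the 3 passes.

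MUC16, MUC15 and MUC22 lit on the DLEU1 vector array alone, so their differences are given as lower bounds. For a bound, the control vector signal was replaced by the lowest signal marked as well above background on that array wherever the probe lay under it. The bounds take no account of the software's errors. MUC16, the membrane mucin whose shed part is the tumour antigen CA125, had a signal of 13.02 ± 3.799 in the control and 83.0 ± 9.05 with the DLEU1 vector on A_23_P5211. It was at least 5.99-fold higher with the DLEU1 vector (2.58 on the log2 scale). The other MUC16 probe, A_33_P3313110 (chr19:9060452-9060511), lay 91528 bases away in the genome and had surrogate values on both arrays, 3.31 and 3.30. The gene was therefore read by 1 of its 2 probes.

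MUC15, a membrane mucin that was first described in milk, has a single probe, A_23_P24332 (chr11:26582464-26582523, minus strand). It had a surrogate value of 3.46 in the control and a signal of 51.1 ± 6.18 with the DLEU1 vector. It was at least 3.69-fold higher (1.89 on the log2 scale). Only the DLEU1 vector array thus held a measured level for it.

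MUC21 and MUC22, membrane mucins encoded next to each other in the major histocompatibility complex on chromosome 6, were at or near the limit of detection. MUC22 had 6.23 and 15.7 ± 3.46 with A_21_P0004641 (chr6:31000336-31002485), and only the latter was well above background. It was at least 1.13-fold higher (0.18 on the log2 scale) by the rule for bounds. Within its software error, the DLEU1 vector signal reached under the lowest detected signal. With spike-in scaling, which sets 8 control probes for added RNA equal on both arrays, the bound was -0.28 and gives no fold. The accessions given for this probe also name a long noncoding transcript, lnc-MUC21-1, so its signal cannot be assigned to MUC22 alone. The 2 MUC22 probes printed above had 3.13 and 3.15 (A_33_P3408232) and 3.05 and 6.27 (A_33_P3214914), and neither was well above background on any array. The single MUC21 probe A_33_P3275035 (chr6:30957616-30957675), 42660 bases from the nearest MUC22 probe, had 5.42 ± 2.91 in the control and 13.5 ± 3.15 with the DLEU1 vector, neither of them well above background.

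MUC5B, the gel-forming mucin of saliva and airway mucus, and MUC13, a membrane mucin best known from the gut, gave no signal above background. MUC5B had surrogate values of 3.46 and 3.40 with its probe A_24_P102650 (chr11:1281060-1281239, plus strand). MUC13 had 3.45 and 3.47 with A_23_P155236 (chr3:124625256-124625315, minus strand). A level below the detection limit of 1 probe does not show that the transcript was absent. In all, 4 of the 16 mucin probes had surrogate values on both arrays.

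Across the other ways of scaling, filtering and correcting the signals, MUC1 lay between 0.36 and 0.94, MUC4 between -1.26 and -0.55 and MUC20 between 0.61 and 1.68. The signs of these 3 stayed the same in each setting that gave a value. MUC20 went under 2-fold with normexp, a background correction that pulls dim signals together, and MUC4 went past 2-fold with spike-in scaling. The bound of MUC15 ranged from 0.65 to 2.00 and that of MUC16 from 0.89 to 2.70, and the lowest value of each, with normexp, was under 2-fold. With probes positive and significant against background, MUC15 gave 3.92. This is its plain difference from the surrogate control value and not a bound by the rule above.

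**Figure D3:**
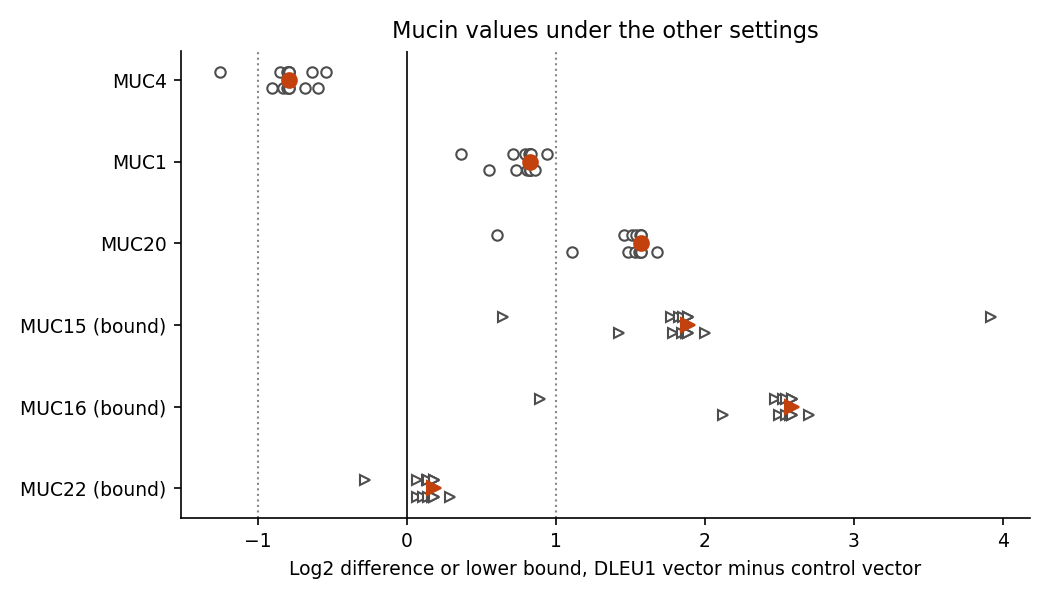
Log2 difference (circles) or lower bound (triangles), DLEU1 vector minus control vector, of the 6 mucins with a value, in the main setting (orange) and in the other settings (open grey). Dotted lines mark 2-fold. MUC4 stays below 0 and MUC1, MUC20, MUC15 and MUC16 above 0, while the MUC22 bound reaches -0.28. The MUC15 triangle at 3.92 is its plain difference from a surrogate control value.

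Mucins are known to be loaded with sugars in steps, and 42 genes of O-glycan synthesis were read in the order of these steps. The first sugar is set by the GALNT transferases, the core chains are built by enzymes such as C1GALT1, and the chains are then capped with sialic acid or fucose. Of the 42 genes, 26 were detected on both arrays, with 2 past 2-fold upwards, 2 past it downwards and 22 within 2-fold. Another 5 were detected on the DLEU1 vector array only, 0 on the control vector array only and 11 on neither. Over all gene names these shares were 2.84%, 2.44% and 48%. The median difference of the 26 was -0.01, beside -0.07 over all genes, of which 9.18% and 9.78% were called. The medians of the 3 lists taken singly changed sign under some scalings. Those of the core and capping enzymes also changed sign with no filter on dim probes, and that of the capping enzymes with other filters too.

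Of 18 initiating transferases, 10 were detected on both arrays and all 10 lay within 2-fold. GALNT2 was the highest, with signals of 514.5 and 864 and a difference of 0.79. GALNT10 was the lowest, with 1351 and 936 and a difference of -0.49. GALNT7 differed by 0.72 and GALNT3 by 0.48. The remaining 8 were not well above background on either array.

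Of 11 genes that build and extend the cores, 7 were detected on both arrays and 1 was at least 2-fold lower. This was B3GNT3, an enzyme that extends core chains, with signals of 2750 and 1042 and a difference of -1.36. C1GALT1, which makes the common core, had 271 and 147 and a difference of -0.85. Its chaperone C1GALT1C1 differed by -0.05, and GCNT1, which adds a branch to the core, by 0.66. GCNT3 and GCNT4, other branching enzymes, lit with the DLEU1 vector only and had bounds of 0.15 and 0.23, both of which went below 0 with spike-in scaling.

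The capping enzymes spread most among the O-glycan lists. Of 13 genes, 9 were detected on both arrays, 2 past 2-fold upwards and 1 downwards. ST6GALNAC2, a sialyltransferase that acts on the first sugar of the chain, had a signal of 699 in the control and 8456 with the DLEU1 vector. It was 12.4-fold higher (3.63 on the log2 scale). FUT3, the Lewis fucosyltransferase, had 293.5 and 732 and a difference of 1.36. Going the other way, ST3GAL4, which puts sialic acid on galactose, had 1320 and 579.6 and a difference of -1.15.

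A further 3 of the 13 capping genes lit with the DLEU1 vector only, as did 2.84% of all gene names. ST6GALNAC1, the enzyme that makes sialyl-Tn antigen, had 6.46 in the control and 191 with the DLEU1 vector, at least 13.8-fold higher. FUT7, which makes sialyl Lewis x, had 13.5 and 256.5, at least 18.5-fold higher. FUT2, the secretor fucosyltransferase, had 6.92 and 41.3, at least 2.99-fold higher. With normexp these bounds fell to 3.33-fold, 4.39-fold and 1.49-fold, the last of them under 2-fold, and FUT3 went under 2-fold with spike-in scaling (0.89 on the log2 scale). The median of the 9 capping genes detected on both arrays was -0.01. It was 0.54 with the genes detected on at least 1 array, beside -0.06 over all genes in that setting. The genes so added, ST6GALNAC1, FUT7 and FUT2, entered only through the DLEU1 vector array, so this rise follows from the filter. With no filter on dim probes the capping median was 0.26, beside 0.04 over all genes.

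**Figure D4:**
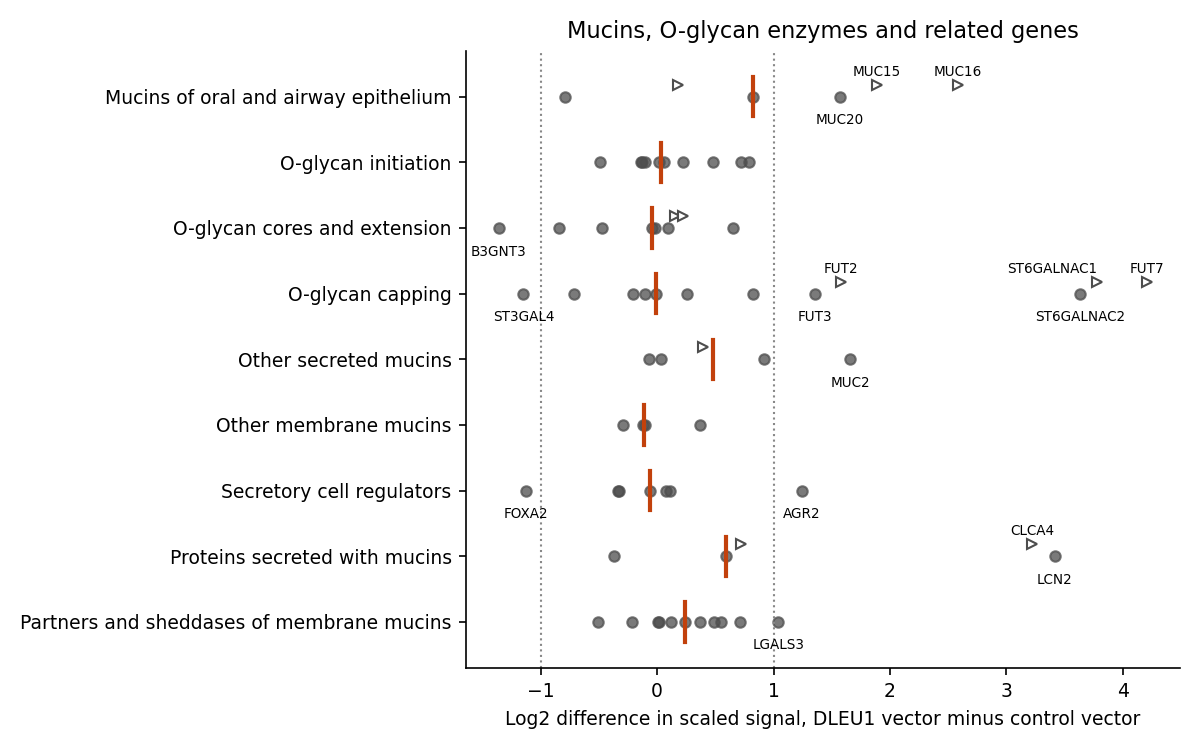
Log2 difference, DLEU1 vector minus control vector, of the mucins (top row) and of related gene lists. Grey dots are genes detected on both arrays, orange bars their median, and dotted lines 2-fold. Open triangles are lower bounds of genes detected on the DLEU1 vector array only, except TFF3, whose triangle is its plain difference. Genes past 2-fold are named, and the only gene detected with the control vector alone (TFF2) is not drawn. The O-glycan medians of genes detected on both arrays lie near 0, with a sign that depends on the scaling. The capping median is 0.54 with genes detected on at least 1 array, a filter that adds genes lit with the DLEU1 vector alone. Capping genes reach from ST3GAL4 at -1.15 to bounds above 3.

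Other genes listed as mucins, which were not among the 9, were read from 2 further lists. The counts of these and the later lists stand beside 9.18% of all genes detected on both arrays at least 2-fold higher and 9.78% lower. Of 7 secreted mucins, 4 were detected on both arrays and 1 was at least 2-fold higher. This was MUC2, the gel-forming mucin of the gut, with signals of 66.9 and 206 on A_23_P256784, a difference of 1.66. A second detected MUC2 probe, A_33_P3401571, had 56.5 and 54.6 and differed by -0.01, so the 2 probes of this gene did not go together, and their mean gave 0.82. Of its other probes, A_33_P3412384 was detected with the control vector only, at 19.2 against 12.8.

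OVGP1, oviductal glycoprotein, differed by 0.92. The airway mucin MUC5AC, the neighbour of MUC5B, differed by 0.03 and the gastric mucin MUC6 by -0.07, and both changed sign under at least 1 scaling. Another MUC5AC probe, A_33_P3216570, was detected with the control vector only, at 16.8 against 3.30. MUC19 was detected with the DLEU1 vector only, with a bound of 0.39 that turned to -0.07 with spike-in scaling. MUC7 and MUCL1 were not well above background on either array.

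Of 8 genes listed as other membrane mucins, among them the adhesion molecule MCAM, 4 were detected on both arrays and 0 were past 2-fold. CD164 differed by 0.37, MCAM by -0.29, PODXL by -0.12 and MUC3A by -0.11. CD164, PODXL and MUC3A changed sign under at least 1 scaling. Other MUC3A probes were detected on 1 array only and went both ways. A_23_P313278 lit with the control vector, at 18.5 against 12.2. A_33_P3331752 lit with the DLEU1 vector, with 7.74 in the control and 15.8. MUC12, MUC17, EMCN and MUCL3 (named DPCR1 in the files) were not well above background on either array.

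Genes that control secretory cells, or whose products act on mucins, were mixed. Of 8 regulators, 7 were detected on both arrays. AGR2, a disulfide isomerase needed for mucin folding, had signals of 25.5 and 58.8 and a difference of 1.24. FOXA2, a transcription factor of airway epithelium, had 100.9 and 45.0 and a difference of -1.13. Both went under 2-fold with normexp (0.50 and -0.55), and AGR2 also with spike-in scaling (0.78). SPDEF, the goblet cell factor, differed by -0.34, ERN2 by -0.32, CREB3L1 by 0.11, FOXA1 by 0.08 and XBP1 by -0.06, the last 3 with a sign that depended on the scaling. FOXA3 was not well above background on either array.

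Of 12 proteins that are secreted with mucins, 3 were detected on both arrays. LCN2, an iron-binding defence protein, had 20.8 and 217 and a difference of 3.42. FCGBP, a mucus protein, differed by 0.59 and TFF1, a trefoil peptide, by -0.37. LCN2 moved to 1.84 with normexp. CLCA4 had 3.099 and 129 and was at least 9.32-fold higher with the DLEU1 vector (2.74-fold with normexp). With probes positive and significant against background it was 42.7-fold. That value is the plain ratio to the undetected control signal and not a bound by the rule used here. TFF3 was detected with the DLEU1 vector only and had 14.31 and 22.9. It was 1.64-fold higher (0.72 on the log2 scale, and from 0.24 with normexp to 0.83 over the settings). The control signal lay above the lowest detected signal of 14.21, so this is the plain difference and not a bound. TFF2, with 17.95 and 16.8, was detected with the control vector only. The remaining 6 were not well above background on either array.

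Of 12 genes for partners and sheddases of membrane mucins, 11 were detected on both arrays and 1 was at least 2-fold higher. LGALS3, a lectin that binds MUC1 and MUC16, had 7100 and 14240 and a difference of 1.04, which was under 2-fold with median scaling (0.93) and with spike-in scaling (0.58). EZR, which ties membrane proteins to actin, differed by -0.51. Of the proteases, MMP14 differed by 0.72, ADAM10 by 0.55 and ADAM17 by 0.00. MSLN, the binding partner of MUC16, was not well above background on either array.

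Markers of other cells were read beside the mucins. Of 6 squamous basal markers, 3 were at least 2-fold higher, as were 9.18% of all genes detected on both arrays. These markers were KRT5 (2.10), KRT14 (2.85) and CDH1 (1.04), of which CDH1 was under 2-fold with median scaling (0.93) and spike-in scaling (0.58). TP63 differed by 0.96, ITGB4 by -0.09 and ITGA6 by -0.23, the last 2 with a sign that depended on the scaling. Of 6 goblet markers, 4 were detected on both arrays and 1, MUC2, was past 2-fold, and all 3 club cell markers were detected within 2-fold. Of 5 ciliated cell markers, RSPH1 (3.01) and DNAI1 (1.39) were detected on both arrays, while FOXJ1, TEKT1 and CFAP126 were detected on neither. DNAI1 was under 2-fold with normexp (0.73) and spike-in scaling (0.92), and RSPH1 was 2.34 with normexp. Of the leukocyte markers, PTPRC differed by 0.45 (-0.01 with spike-in scaling), CD3E was not well above background, and 2 had no probe. Of 5 fibroblast markers, COL1A1 differed by 3.99, LUM was detected with the DLEU1 vector only, and COL1A2, DCN and PDGFRA were detected on neither array. All of these marker genes were read in a cultured cell line, and any relation of their values to those of the mucins was not tested.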

How the data were processed

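The deposited intensity values were made by the authors with Agilent Feature Extraction (10.7.3.1 per the file headers, 10.7 in the submitters' processing notes), which subtracted the background, detrended each array and gave dim spots a surrogate. The authors' series values are the same intensities, rounded, within 0.497%. Neither was normalized between arrays. Here, control spots and outlier spots were left out, log2 signals of a probe's spots were averaged, and each array's 75th percentile was subtracted (Python 3.11.15, pandas 2.3.3, numpy 2.4.6). Alternatives used limma 3.58.1 in R 4.3.3 (normexp offset 50, loess span 0.3). A gene took its brightest probe detected on both arrays.

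The members and gene lists were chosen with earlier results of these data known. All members were named on every probe. Of each list, up to 3 genes with the largest difference each way and up to 3 with the largest bound could be named. Any gene of a list of 8 or fewer could be named too, and some marker genes are given as counts only. Likeness to the members was not ranked, since 2 arrays give 1 difference per gene. The scaling and the probe differences were tested on simulated data, with changes put into bright probes detected on both arrays. Dim probes, bounds and the choice of a probe per gene were not part of that test. One gene of the marker lists is not reported here.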

Additional observations from a re-analysis of the deposited data

How the results depend on the processing

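Apart from the 2-fold threshold, 15 alternatives were tried. No called mucin difference reversed. The median of the mucins detected on both arrays, 0.83, moved to 0.71 with median scaling, 0.94 where the 75th percentile was taken from detected probes, 0.36 with spike-in scaling, 0.55 with normexp and 0.73 with the median of the 100 nearest spots taken off. It was 0.016 where both signals had to reach 100, which leaves 2 mucins, 1.47 with detection on at least 1 array (6 mucins), 1.36 with probes positive and significant against background (6 mucins) and 1.36 with no filter on dim probes (9 mucins), and these filters also change which mucins enter. The 1 mucin at least 2-fold higher became 0 with normexp or with that minimum of 100, 4 with detection on at least 1 array or positive and significant probes, and 5 with no filter. Over all genes the share was 5.54% with normexp and 7.27% with that minimum. It was 12.1% with detection on at least 1 array, 11.2% with positive and significant probes and 9.77% unfiltered. With detection on at least 1 array, MUC15, MUC16 and MUC22 enter only through the DLEU1 vector array. The control value of MUC15 is a surrogate. A 1.5-fold threshold gave 2 higher and 1 lower, and a 3-fold threshold 0 higher. The 0 mucins at least 2-fold lower became 1 with spike-in scaling, where 24.1% of all genes detected on both arrays were at least 2-fold lower. The mean of the detected MUC4 probes was -0.55. Over all genes detected on both arrays, higher genes were 48.4% of those called, against 15.9% with spike-in scaling (median of all genes -0.53), 57.7% with loess, 39% with median scaling (-0.18) and 58.4% where detected probes set the percentile. Of 1106 differences of other named genes over these alternatives, 40 changed sign, none of them past 2-fold in the main setting. The causes of these movements were not tested beyond what each setting does by construction. No paired analysis was possible because each group had 1 array, and for the same reason no array could be left out. Signals near background limit MUC20, MUC15, MUC16 and MUC22 most.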

Other observations

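Other genes with a probe within 100 kb of the mucin probes on hg19 were read beside them. They and the noncoding genes below were chosen after values were seen, and none of their values was tested. Around MUC1 there were 12 genes, 11 of them detected on both arrays, and 3 were at least 2-fold higher with the DLEU1 vector. Over all genes detected on both arrays, 9.18% were at least 2-fold higher and 9.78% lower. The 3 were THBS3 (1.68), a thrombospondin of the matrix, and the ephrins EFNA1 (1.24) and EFNA3 (1.04), which are ligands of EPH receptors. With spike-in scaling both ephrins were under 2-fold (0.77 and 0.58), and EFNA3 also with normexp (0.69), with median scaling (0.93) and with spots centred on their 100 neighbours (0.99). None of the 11 (0) was at least 2-fold lower, and MTX1 was the lowest at -0.60 (-1.07 with spike-in scaling). TNK2, the only gene found near MUC4 and MUC20, differed by 0.50. Near MUC13, which was not detected, HEG1, an endothelial membrane protein, was higher by 1.48.

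Around MUC21 and MUC22 there were 7 genes, of which 4 were detected on both arrays, 1 on the DLEU1 vector array only and 2 on neither. Over all gene names, 2.84% were detected on the DLEU1 vector array only and 48% on neither. The gene detected on the DLEU1 vector array only was CDSN, corneodesmosin, at least 110-fold higher (6.78 on the log2 scale, and 4.49 with normexp). The noncoding gene HCG22 was higher by 1.92 (0.88 with normexp) and the collagen receptor DDR1 by 1.12 (0.66 with spike-in scaling), while GTF2H4 differed by -0.30 and VARS2 by -0.33.

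Noncoding transcripts named after mucins were mostly dim. lnc-MUC5B-1 was detected on both arrays, with signals of 106 and 131 and a difference of 0.34 (-0.12 with spike-in scaling). One of the lnc-MUC20-2 probes, A_22_P00010312, had 6.93 in the control and 29.1 with the DLEU1 vector, at least 2.10-fold higher, which was under 2-fold with spike-in, median and quantile scaling and with normexp (1.41-fold), while the other, A_21_P0012526, was not well above background on either array. A lnc-MUC20-4 probe, A_22_P00010315, went the other way, with 27.3 and 9.45, at least 1.86-fold lower (-0.89 on the log2 scale). This bound lay between -1.36 with spike-in scaling and -0.15 with normexp. The other lnc-MUC20-4 probe, A_22_P00019740, was not well above background on either array.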
